A study of Homo sapiens with 8 samples.

Results

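The Aurora kinases and their mitotic partners were followed as 10 genes, AURKA, TPX2, BORA, PLK1, CEP192 and TACC3 on the Aurora A side and AURKB, INCENP, BIRC5 and CDCA8 in the chromosomal passenger complex. They were chosen by name and matched through Ensembl gene identifiers, of which 62666 of 63241 (99.1%) had a symbol. All 10 were found among the 63241 listed genes, and each passed the filter on low values (2 or more libraries with an FPKM of 1 or higher), which kept 15173 genes. FPKM divides the fragments of a gene by transcript length and library total, so levels of different genes can be compared per length.

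Polyadenylated RNA was sequenced in 8 libraries from HepG2 and Huh7, established human liver cancer cell lines, to ask what distinguishes cells resistant to the multikinase inhibitor sorafenib from sensitive ones. HepG2 WT and Huh7 WT carry the genotype label WT and the treatment label control, and HepG2 SR and Huh7 SR carry the genotype label SR and the treatment label sorafenib, with 2 libraries in each of the 4 groups. The SR lines were made by exposing each parental line to increasing sorafenib, so each is a single selected line, and resistance and the treatment label cannot be told apart. Whether the drug was present when RNA was taken is not given in the sources used here. All libraries carry a single batch label, and nothing states that replicates came from separate cultures, so p-values measure the spread between these libraries, which may not be that of separate cultures.

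As background, Aurora A acts at centrosomes and on the spindle, where CEP192 recruits it and TPX2 activates it and directs it to microtubules. BORA helps Aurora A to activate PLK1 at mitotic entry, and TACC3 is a substrate that cross-links spindle fibres. Aurora B works with INCENP, BIRC5 (survivin) and CDCA8 (borealin) at centromeres and later at the midzone, and in dividing cells transcripts of most of these genes accumulate in G2 and mitosis and fall afterwards.

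The libraries did not group by their labelled cell line, as judged from pairwise r of log2(FPKM + 1) (Pearson) over 15173 genes, which do not count as independent. Profile 1 below is 5 libraries with r from 0.914 to 0.977 among themselves, both HepG2 WT libraries, replicate 1 of HepG2 SR and replicate 2 of each Huh7 group. Replicate 1 of Huh7 WT and of Huh7 SR formed a pair (r = 0.965) that had r from 0.731 to 0.783 with profile 1. HepG2 SR replicate 2 stood alone, with r between 0.775 and 0.819 with profile 1 and between 0.815 and 0.846 with the other pair. The replicates of HepG2 SR, Huh7 WT and Huh7 SR thus had unlike profiles (r = 0.819, 0.754 and 0.760), while those of HepG2 WT were alike (r = 0.960). The spread within groups, on which the standard errors and p-values below rest, includes these differences of profile. Groups are those of the labels, and main results are also given from 2 fits of another form, SR against WT in profile 1 alone (2 SR and 3 WT libraries) and SR against WT with profile as a term. Both leave out the cell line, and neither draws on HepG2 SR replicate 2, which is outside profile 1 and alone in its own profile.

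Markers of liver cells varied widely between libraries. The summed level of 8 hepatocyte markers, ALB being the most abundant, was 4395 and 5409 FPKM in HepG2 WT, 5398 and 7378 in HepG2 SR, 242 and 1087 in Huh7 WT and 489 and 5095 in Huh7 SR. That of 4 bile duct markers, KRT19 being the most abundant, was 904 and 393 FPKM in HepG2 WT, 460 and 65.3 in HepG2 SR, 15.5 and 308 in Huh7 WT and 15.9 and 413 in Huh7 SR. Both sums were lowest in the Huh7 libraries of replicate 1. Markers of fibroblasts, blood cells and endothelium summed to at most 8.92, 29.1 and 4.52 FPKM, led by COL1A2, CD68 and PECAM1, and PTPRC, CD3E and THY1 were at most 0.0258, 0.0415 and 0.0416 FPKM. In SR versus WT over both cell lines, by the fit described below, all 8 hepatocyte markers had log2 fold changes above 0 (median 0.80) and bile duct markers a median of -0.71, against -0.05 over all genes, and none of these was called. In Huh7 the hepatocyte median was 1.62, and HNF4A, named after its value was seen, was called higher (0.96). In HepG2 the hepatocyte median was 0.18, with 6 of 8 above 0. Bile duct medians were -0.98 in HepG2 and 0.27 in Huh7. The part of these markers in the results was not tested.

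Depth, a rough estimate from the spacing of low values, few of which fitted whole reads, was 39.2 and 27.6 M reads in HepG2 WT, 47.3 and 45.5 in HepG2 SR, 54.3 and 43.9 in Huh7 WT and 41.6 and 45.9 in Huh7 SR. A single read in a transcript of 1 kb was then worth between 0.0184 and 0.0363 FPKM by that estimate, and the lowest value of the 10 genes was 1.47 FPKM. HepG2 WT replicate 2 also listed 38276 genes above 0, against 27188 to 29071 in the other 7 libraries.

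Promoters are shown for PLK1, INCENP and CDCA8, partners whose start sites carry a motif of cell cycle genes close by, and for AURKB, which lacks it. RefSeq promoters of 250 bases before to 50 after the start (GRCh38.p14) were given for 7 of the 10 genes, AURKB, BORA, PLK1, INCENP, CDCA8, CEP192 and TACC3. Both strands were searched for TTTGAA, a form of the CHR element of genes expressed in G2 and mitosis, and for CCAAT, the core of the NF-Y site. The sequences run 5′ to 3′ along the gene from 130 bases before to 20 after the start, with TTTGAA and CCAAT of either strand in capitals, overlapping in CDCA8. AURKB has 2 entries, of which the 2nd is shown, and in the other (chr17:8210206-8210355) the CCAAT match begins 153 bases before the start, outside the bases that would be shown.
PLK1 (chr16:23678759-23678908, plus strand): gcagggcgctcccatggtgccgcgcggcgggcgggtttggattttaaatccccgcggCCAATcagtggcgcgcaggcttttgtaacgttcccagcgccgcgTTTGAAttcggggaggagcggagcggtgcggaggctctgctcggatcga
INCENP (chr11:62123881-62124030, plus strand): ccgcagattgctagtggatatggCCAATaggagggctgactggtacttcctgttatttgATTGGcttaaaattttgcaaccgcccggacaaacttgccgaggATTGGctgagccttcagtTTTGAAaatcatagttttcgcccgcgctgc
CDCA8 (chr1:37692386-37692535, plus strand): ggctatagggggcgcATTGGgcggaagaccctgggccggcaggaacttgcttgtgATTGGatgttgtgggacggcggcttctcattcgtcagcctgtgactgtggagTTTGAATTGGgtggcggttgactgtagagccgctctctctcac
AURKB (chr17:8210230-8210379, minus strand): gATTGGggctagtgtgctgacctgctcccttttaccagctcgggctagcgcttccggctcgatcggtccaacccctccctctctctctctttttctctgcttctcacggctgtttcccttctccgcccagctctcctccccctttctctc

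TTTGAA began 29 bases before the start in PLK1, 10 before it in INCENP and 23 before it in CDCA8. Over all 35116 promoters of the table, 0.675% held it on the gene's strand within the last 30 bases before the start, 15.2% held it anywhere on either strand, 34.6% held CCAAT and 5.90% held both. Of the 7 members, 5 held TTTGAA, 6 held CCAAT and the same 5 held both. TACC3 held neither in this window, and AURKB held CCAAT alone. A match is a run of letters and was not tested for use in these cells.

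AURKA (ENSG00000087586), which encodes Aurora A, stood in HepG2 WT at 10.2 and 14.1 FPKM, against 92.8 and 50.5 in HepG2 SR. In Huh7 WT it stood at 19.7 and 16.8 FPKM, and in Huh7 SR at 129 and 59.6 FPKM. All 4 SR libraries were above all 4 WT libraries, and the WT libraries differed by 1.93-fold from lowest to highest. AURKA and TACC3 were the members without overlap, 2 of 10, where 1.52% of all 15173 genes had all 4 SR above all 4 WT libraries. In bulk RNA, more cells in G2 or mitosis and more RNA per cell cannot be told apart.

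Within a cell line, the ratio of AURKA between an SR and a WT library ran from 3.03 to 9.10 over the 8 possible pairs. Where the libraries of a pair had like profiles, it was 9.10 and 6.60 for HepG2 SR replicate 1 against the HepG2 WT replicates, 6.58 between the Huh7 libraries of replicate 1 and 3.55 between those of replicate 2. The higher SR level was thus present inside profile 1 and in the pair outside it.

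**Figure D1:**
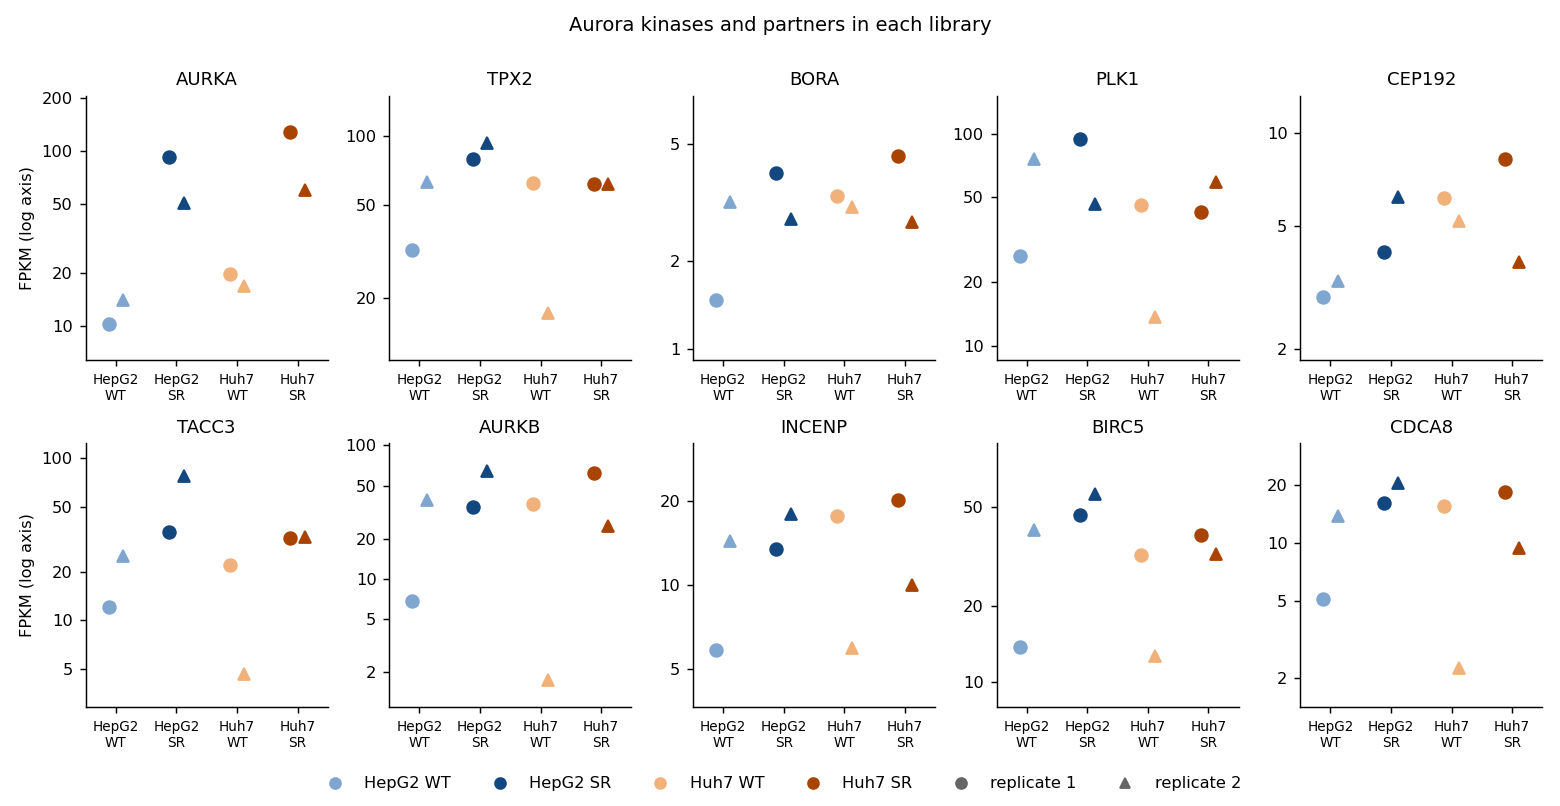
FPKM of each of the 10 genes (log axis) in the 8 libraries, with circles for replicate 1 and triangles for replicate 2 of each group. AURKA lies between 10.2 and 19.7 FPKM in all WT libraries and between 50.5 and 129 in all SR libraries, while for AURKB the WT libraries spread from 1.73 to 39.2 FPKM.

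SR was compared with WT by limma on log2(FPKM + 1), a scale that understates changes of weakly expressed genes, with all 8 libraries in a model of 4 group means. Genes were called at the study's thresholds, p under 0.05 and log2 fold changes from 0.5 upwards or under -0.5. The study does not say whether its p was adjusted, and here p was taken before adjustment. In HepG2, AURKA changed by 2.42 log2 units (standard error 0.49) and in Huh7 by 2.21 (standard error 0.49), with a limma adjusted p of 0.956 or more in both. It was called higher in each cell line, as were 0.877% of genes in HepG2 and 0.942% in Huh7. No other member was called in either cell line in this fit. Over 18 settings, calls were made for TACC3 in 4 in HepG2 and 2 in Huh7, for AURKB in 2 in Huh7, for TPX2 and CDCA8 in 1 each in Huh7 and for BIRC5 in 1 in HepG2. Some came with a replicate block within each cell line, where 1392 genes were called in HepG2 and 669 in Huh7. A separate fit of each cell line, where 486 genes were called in HepG2, gave another for TACC3. The rest came with a library left out, which leaves a group with a single library. In the fit with 4 groups, 325 and 283 genes were called.

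Over both cell lines, the mean of the HepG2 and Huh7 differences, AURKA rose by 2.32 log2 units (standard error 0.35, 95% interval 1.49 to 3.14, limma adjusted p = 0.998), rank 3 of 15173 from the highest. Over all alternatives the estimate ran from 2.04 to 2.59 with an adjusted p of at least 0.156. The fits without cell line gave 2.39 in profile 1 alone and 2.47 with profile as a term (limma adjusted p = 0.676 and 0.156). In this comparison 288 genes (1.90%) were called higher and 308 (2.03%) lower, and 0 had an adjusted p under 0.05 in limma, with 597 at an unadjusted p under 0.05 where about 759 would be by chance. Rescaling each library to a common sum gave 198 higher and 449 lower and moved the median of all genes from -0.05 to -0.14, with AURKA at 2.26. By a two-sided exact permutation test of the 4 SR against the 4 WT libraries, AURKA had p = 0.0286, the smallest that 70 arrangements allow, and 10 members were tested. These arrangements exchange libraries across HepG2 and Huh7. Within the cell lines, a test added after the values were seen, 36 arrangements allow no exact p under 0.0556, which AURKA, TACC3 and BIRC5 had. The members were chosen with earlier results of these data known, so this p is no independent evidence.

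TPX2, the activator of Aurora A, was listed at 32.2 and 63.4 FPKM in HepG2 WT and 79.0 and 93.0 in HepG2 SR, and at 62.5 and 17.2 in Huh7 WT and 61.9 and 61.8 in Huh7 SR. The HepG2 SR libraries were above the WT libraries, but in Huh7 only the low WT replicate 2 lay under the SR libraries. The log2 fold change over both cell lines was 0.90 (standard error 0.44, 95% interval -0.15 to 1.94), and TPX2 was not called. It went from 0.45 without Huh7 WT replicate 2 to 1.35 without Huh7 WT replicate 1.

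PLK1, the kinase that Aurora A activates, was listed at 26.4 and 76.0 FPKM in HepG2 WT, 94.2 and 46.7 in HepG2 SR, 46.2 and 13.7 in Huh7 WT and 42.6 and 58.9 in Huh7 SR. HepG2 WT replicate 2 was above 3 of the 4 SR libraries, and the log2 fold change over both cell lines was 0.75 (standard error 0.52, 95% interval -0.47 to 1.98), not called. PLK1 overlaps ERN2 and an antisense gene by 42 and 641 bases on the opposite strand, and no source says whether reads were counted by strand. That antisense gene was at most 0.670 FPKM and ERN2 at most 3.33 FPKM.

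BORA was listed between 1.47 and 3.32 FPKM in WT and between 2.72 and 4.56 in SR libraries, and CEP192 between 2.96 and 6.15 in WT and between 3.82 and 8.21 in SR. Their log2 fold changes over both cell lines were 0.28 each (standard error 0.30 each), and their 95% intervals, from -0.44 and -0.45 upwards, include 0. Neither was called. BORA overlaps DIS3 by 4030 bases on the opposite strand, and DIS3 ran from 3.19 to 10.9 FPKM.

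TACC3, the spindle substrate of Aurora A, was the other member without overlap, at 12.1 and 24.8 FPKM in HepG2 WT, 35.0 and 77.4 in HepG2 SR, 22.1 and 4.63 in Huh7 WT and 32.1 and 32.5 in Huh7 SR. Every SR library was above every WT library, but the gap from the highest WT to the lowest SR library, 24.8 against 32.1 FPKM, was small beside the 5.37-fold spread of the WT libraries. The log2 fold change over both cell lines was 1.54 (standard error 0.52, 95% interval 0.29 to 2.78, limma adjusted p = 0.998), called higher, and the exact permutation p was 0.0286, again the smallest possible. The call was lost without HepG2 WT replicate 1 (1.29) and without HepG2 SR replicate 2 (1.26). TACC3 was also called in the fits without cell line, which do not use HepG2 SR replicate 2, in profile 1 alone (1.49) and with profile as a term (1.20). The WT libraries of profile 1 include HepG2 WT replicate 1 and Huh7 WT replicate 2, the lowest in TACC3, but not Huh7 WT replicate 1.

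AURKB, which encodes Aurora B, stood in HepG2 WT at 6.85 and 39.2 FPKM, against 34.4 and 64.8 in HepG2 SR. In Huh7 WT it stood at 36.4 and 1.73 FPKM, and in Huh7 SR at 62.1 and 25.0 FPKM. HepG2 WT replicate 1 and Huh7 WT replicate 2 were low, whereas the other WT libraries lay within the range of the SR libraries. The log2 fold change over both cell lines was 1.72 (standard error 0.92, 95% interval -0.47 to 3.92), not called, and went from 0.78 without Huh7 WT replicate 2 to 2.67 without Huh7 WT replicate 1.

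The other subunits of the passenger complex shared the low WT libraries. INCENP, its scaffold, was listed at 5.84 and 14.4 FPKM in HepG2 WT, 13.5 and 18.0 in HepG2 SR, 17.7 and 5.96 in Huh7 WT and 20.1 and 9.99 in Huh7 SR. BIRC5 was listed at 13.7 and 40.6 FPKM in HepG2 WT, 46.7 and 56.3 in HepG2 SR, 32.1 and 12.6 in Huh7 WT and 38.8 and 32.4 in Huh7 SR. In each, HepG2 WT replicate 1 and Huh7 WT replicate 2 were the lowest, and the groups overlapped over the 4 against 4 libraries.

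CDCA8 was listed at 5.17 and 13.8 FPKM in HepG2 WT, 16.2 and 20.6 in HepG2 SR, 15.6 and 2.26 in Huh7 WT and 18.5 and 9.46 in Huh7 SR. Here 3 of the 4 SR libraries were above all WT libraries. The log2 fold changes over both cell lines were 0.55 for INCENP, 0.93 for BIRC5 and 0.99 for CDCA8 (standard errors 0.45, 0.43 and 0.58). In that fit 0 of the 4 passenger genes were called. With a library left out, INCENP lay between 0.20 and 0.91, BIRC5 between 0.56 and 1.31 and CDCA8 between 0.40 and 1.57.

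In all, 2 of 10 members were called higher over both cell lines, against 1.90% of genes, and 0 were called lower. In the fits without cell line, AURKA and TACC3 were the members called with profile as a term, where 3.76% of genes were called higher, and in profile 1 alone, where 383 of 13693 genes were. With replicate number as a block over both cell lines the count of members was 2. As a block within each cell line it gave 6, with AURKB, TPX2, BIRC5 and CDCA8 added, where 690 of 15173 genes were called higher. The count also depends on single libraries. It was 3 without HepG2 WT replicate 2, when BIRC5 was also called, 1 without HepG2 WT replicate 1 or without HepG2 SR replicate 2, and 6 without Huh7 WT replicate 1, when AURKB, TPX2, BIRC5 and CDCA8 were also called. Of all genes, 106 of 15023 were called higher without HepG2 WT replicate 1, 237 of 14991 without HepG2 WT replicate 2, 131 of 14946 without HepG2 SR replicate 2 and 444 of 14545 without Huh7 WT replicate 1. Without Huh7 WT replicate 2 it was 236 of 14955, without Huh7 SR replicate 1 268 of 14593 and without Huh7 SR replicate 2 301 of 14964. By the exact permutation test, the 8 members other than AURKA and TACC3 had p between 0.114 and 0.343.

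The changes were compared between the cell lines by the contrast of Huh7 with HepG2. For AURKA the difference was -0.21 on the log2 scale (standard error 0.69, 95% interval -1.85 to 1.44), and 0 of 10 members had an unadjusted p under 0.05 in limma, nor did any of 15173 genes pass after adjustment, with 92 at an unadjusted p under 0.05. With 2 libraries per group the intervals are wide, and equal changes in HepG2 and Huh7 are not shown.

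**Figure D2:**
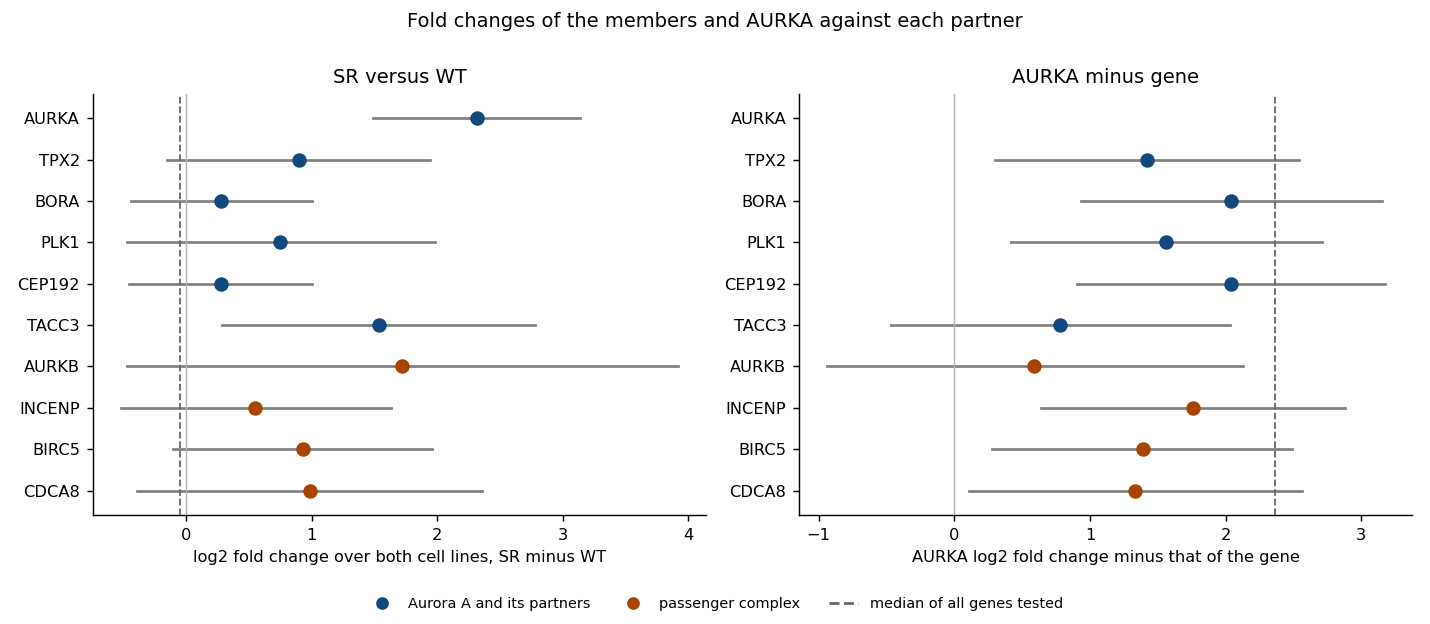
Left, log2 fold change of each gene over both cell lines (SR minus WT); right, the log2 fold change of AURKA minus that of each other gene, so that AURKA itself has no point. Points are limma estimates, bars are 95% intervals and dashed lines the median of all genes tested, -0.05 on the left and 2.36 on the right, where TACC3 and AURKB are the members whose bars reach 0.

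Whether AURKA moved apart from its partners was tested within libraries, by fitting log2(AURKA + 1) minus log2(gene + 1) for every other gene. AURKA rose more than 97.0% of the 15172 genes by this test, with a median difference of 2.36, so a call for a partner says little by itself. It rose more than 7 of the 9 partners, by 2.04 for BORA and CEP192, 1.76 for INCENP, 1.56 for PLK1, 1.42 for TPX2, 1.39 for BIRC5 and 1.33 for CDCA8 (standard errors 0.52 to 0.58). Against TACC3 the difference was 0.78 (standard error 0.59, 95% interval -0.47 to 2.03) and against AURKB 0.59 (standard error 0.72, 95% interval -0.94 to 2.13), neither called. With profile as a term and no cell line, they were 1.27 for TACC3, which was called, and 1.06 for AURKB, which was not, and in profile 1 alone 0.90 and 0.71, not called. In the fit with 4 groups, all 9 differences were under the median of all genes.

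AURKA enters each of these differences, so limma's pooled spread treats as independent what is shared, and its p-values are too small. With the spread of each difference alone, added after the values were seen, AURKA rose more than 84.6% of genes, and TPX2, PLK1, BIRC5 and CDCA8 lost the call, leaving BORA, CEP192 and INCENP. Over all 20 settings the call was lost in 7 for CDCA8, 5 for TPX2, 5 for BIRC5 and 4 for PLK1. The two-sided exact permutation test, over 9 differences, gave the smallest p, 0.0286, for BORA, CEP192 and INCENP, and between 0.0571 and 0.600 for the other 6. AURKA alone had that smallest p, so a gene that changed little can reach it through AURKA. The share of all genes that would reach it was not computed, nor was it for the test within the cell lines or the ratios that follow. These results thus say little about the partners by themselves. Within the cell lines, the smallest possible exact p, 0.0556, went to the same 3 and to BIRC5 and CDCA8. On the FPKM scale the AURKA to BORA ratio lay between 4.44 and 6.93 in WT and between 18.2 and 28.4 in SR, and the AURKA to CEP192 ratio between 3.20 and 4.24 in WT and between 8.14 and 22.5 in SR, without overlap. The AURKA to INCENP ratio, from 0.981 to 2.81 in WT and from 2.81 to 6.87 in SR, overlapped on this scale, so its separation depends on the pseudocount. The AURKA to AURKB ratio was 1.49 and 0.359 in HepG2 WT, 2.70 and 0.779 in HepG2 SR, 0.541 and 9.70 in Huh7 WT and 2.09 and 2.38 in Huh7 SR, with the highest value in a WT library. Without Huh7 WT replicate 1, the difference between AURKA and AURKB turned to -0.30, and without Huh7 WT replicate 2 it was 1.48 and called.

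The wide spread of the partners in WT was shared with other mitotic genes. The summed level of 26 G2 and M phase genes, none of them a member, was 276 and 746 FPKM in HepG2 WT, 889 and 1150 in HepG2 SR, 918 and 185 in Huh7 WT and 1048 and 735 in Huh7 SR. HepG2 WT replicate 1 and Huh7 WT replicate 2 were the lowest libraries for all 37 of the listed G2, M, centromere and midzone genes and for 7 of the 10 members, the exceptions being AURKA, BORA and CEP192. The remaining WT libraries, HepG2 WT replicate 2 and Huh7 WT replicate 1, were above at least 1 SR library in 24 and 31 of the 37 genes.

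AURKA took this order only in part. It was lowest in HepG2 WT replicate 1, but lower in HepG2 WT replicate 2 than in Huh7 WT replicate 2. Per 1000 FPKM of the summed G2 and M phase genes, HepG2 WT had 36.9 and 18.9 FPKM of it, HepG2 SR 104 and 43.9, Huh7 WT 21.4 and 90.5 and Huh7 SR 123 and 81.1. Within HepG2, the SR libraries were above the WT libraries, whereas Huh7 WT replicate 2 lay between the Huh7 SR libraries. Its AURKA level was ordinary among WT libraries and its summed mitotic level the lowest. Between HepG2 WT replicate 2 and HepG2 SR replicate 1, which had like profiles (r = 0.973) and sums of 746 and 889 FPKM, AURKA differed 6.60-fold and AURKB 0.876-fold. Between the Huh7 libraries of replicate 1, with sums of 918 and 1048 FPKM, AURKA differed 6.58-fold and AURKB 1.71-fold. These pairs have like mitotic sums, with which AURKB had an r of 0.99 over all 8 libraries. Within the first pair, AURKB was lower in the library with the higher sum. In the other pairs with like profiles the sums differ, and AURKB was further apart than in the first 2 pairs, 14.5-fold beside 3.55-fold for AURKA between the Huh7 libraries of replicate 2, and 5.02-fold beside 9.10-fold between the HepG2 libraries of replicate 1.

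**Figure D3:**
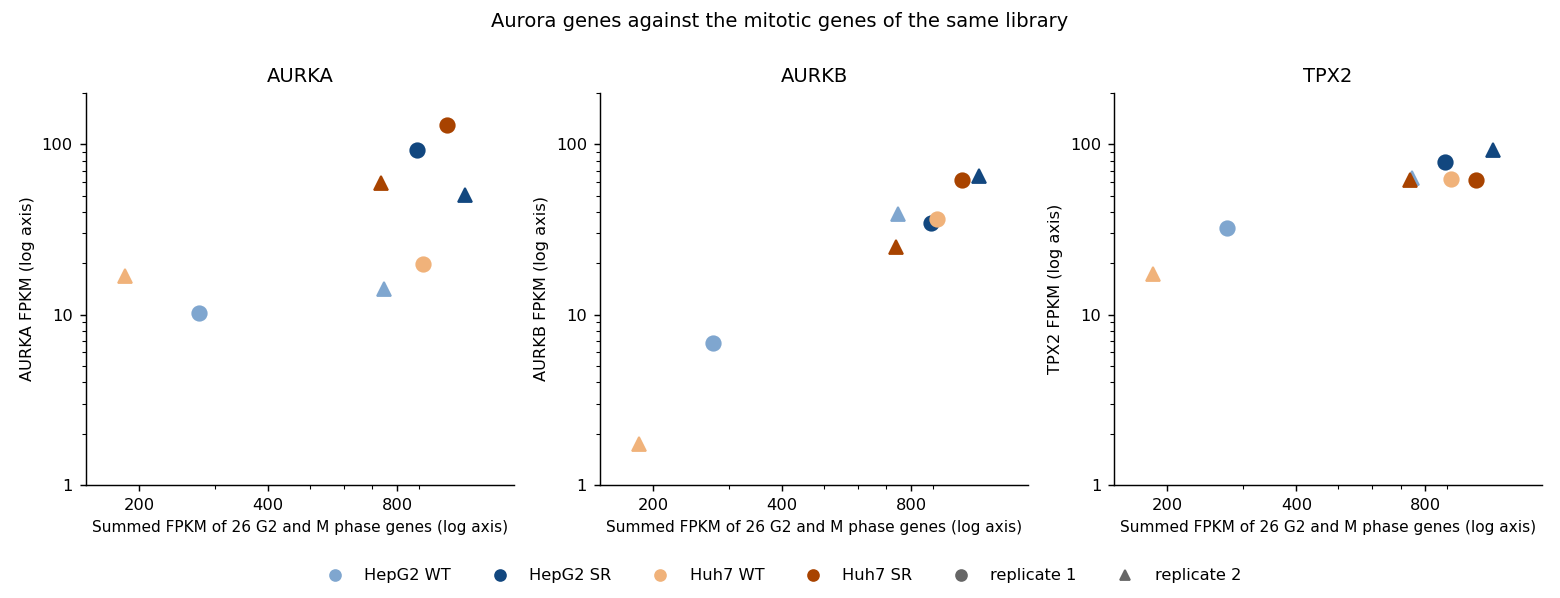
FPKM of AURKA, AURKB and TPX2 (log axis) against the summed FPKM of 26 G2 and M phase genes (log axis), 1 point a library, with circles for replicate 1 and triangles for replicate 2. AURKB has an r of 0.99 with the sum on log scales, while AURKA at sums of 735 and above is 14.1 and 19.7 FPKM in WT libraries and 50.5 to 129 in SR libraries.

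Over the 8 libraries, in each of which all genes share the depth and scaling, Pearson's r of log2(FPKM + 1) between AURKA and its partners lay between 0.45 for PLK1 and 0.68 for BORA. By that r, the partners ranked from 422 to 1728 among 15172 genes. Among AURKB, TPX2, PLK1, INCENP, BIRC5, CDCA8 and TACC3, r lay between 0.63 and 0.99 over 21 pairs, with AURKB and CDCA8 at 0.99. These values rest largely on HepG2 WT replicate 1 and Huh7 WT replicate 2, the libraries farthest from the median of the mitotic sum. Over the 6 libraries without them, r of the 21 pairs ran from -0.59 to 0.91 and that of AURKA with its partners from -0.09 to 0.52.

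The r of each member with the summed G2 and M phase genes was 0.99 for AURKB, 0.98 for CDCA8, 0.96 for TPX2, 0.64 for AURKA, 0.55 for BORA and 0.41 for CEP192 over 8 libraries. Over the 6 libraries it was 0.86 for AURKB, 0.90 for CDCA8, 0.59 for TPX2, 0.42 for AURKA, 0.29 for BORA and 0.85 for CEP192. INCENP went from 0.94 to 0.81, BIRC5 from 0.95 to 0.58 and TACC3 from 0.92 to 0.64. PLK1 changed most, from 0.80 to -0.58. These are descriptions of 8 libraries with no test.

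**Figure D4:**
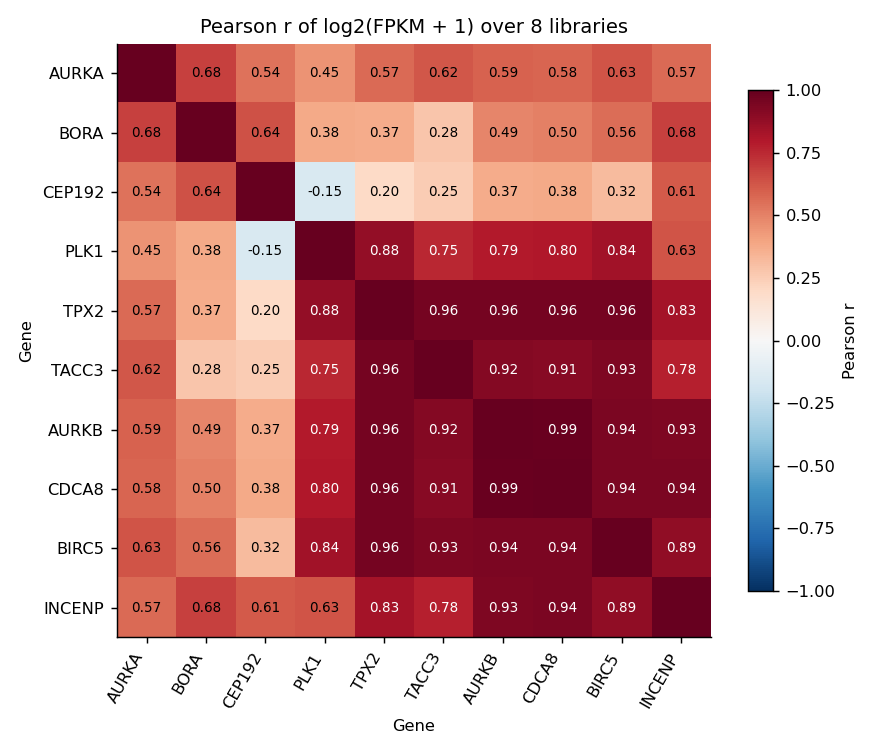
Pearson's r of log2(FPKM + 1) between each pair of the 10 genes over 8 libraries, from blue for -1 to red for 1, with genes on both axes. AURKA has r of 0.45 to 0.68 with the others, and TPX2, TACC3, AURKB, CDCA8, BIRC5 and INCENP have r of 0.78 to 0.99 with one another, while PLK1 has r down to 0.63 with these 6.

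Genes that follow AURKA most closely over the 8 libraries were named by r alone, which leaves no test. HADH, a mitochondrial enzyme of fatty acid oxidation, had an r of 0.962 and stood between 5.87 and 8.01 FPKM in WT and between 10.5 and 19.4 in SR libraries. The others were ENSG00000280239 (0.959), LBR, a receptor of the inner nuclear membrane (0.936), the ribosomal pseudogene RPL7P1 (0.932) and ZNF511 (0.932). LBR was listed at 20.6 and 16.0 FPKM in HepG2 WT, 39.4 and 35.6 in HepG2 SR, 21.1 and 26.1 in Huh7 WT and 47.5 and 36.5 in Huh7 SR. None of these 5 genes is on the lists of mitotic or S phase genes.

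AURKA lies on chromosome 20 of GRCh38 from 56369389 to 56392337, minus strand, in GENCODE release 29, and overlaps no other annotated gene. CSTF1, a polyadenylation factor, begins 34 bases away on the plus strand and was listed at 14.1 and 15.7 FPKM in HepG2 WT, 18.5 and 16.3 in HepG2 SR, 14.8 and 15.2 in Huh7 WT and 16.6 and 15.1 in Huh7 SR. Its log2 fold change over both cell lines was 0.14 (standard error 0.21), and AURKA rose by 2.17 more. FAM210B, 726 bases beyond the other end, and RTF2, 76248 bases away on the side of CSTF1, each stood at -0.36 log2 units (standard errors 0.64 and 0.28), and CASS4 was at most 0.185 FPKM. Of the copies of AURKA, AURKAP1 was at most 0.646 FPKM and AURKAP2 was listed at 0 in every library, and how reads shared with them were placed was not tested.

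Other genes that act with the Aurora kinases were taken from lists. Of 9 other regulators and relatives of Aurora A, 8 passed the filter and 0 were called over both cell lines, against 1.90% of all genes higher and 2.03% lower, with a median log2 fold change of -0.15 against -0.05 over all genes. The largest change was that of PAK1, a kinase that can activate Aurora A, at -0.79 (standard error 0.55). AURKC, the third Aurora kinase, was at most 0.570 FPKM. Of the other polo-like kinases, 0 of 3 were called, with PLK3 at -1.27 (standard error 0.81). These counts depend on the fit. Without cell line, PAK1 was called lower with profile as a term (-1.29) and in profile 1 alone (-1.43), PLK3 was called lower with profile as a term (-0.64), and PLK4 was called higher in both (0.88 and 1.15). In the fit with 4 groups, PAK1 was called lower without HepG2 SR replicate 2 (-1.40), PLK3 lower without HepG2 SR replicate 1 (-1.92) and PLK4 higher without Huh7 WT replicate 1 (1.23). In HepG2 alone AJUBA was called lower (-1.15, limma adjusted p = 0.956). PLK4 and AJUBA are named after their values were seen.

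For 11 centromere and midzone partners of Aurora B the log2 fold changes were all above 0, their median was 0.92, and 1 was called, the midzone bundling protein PRC1 at 1.30 (standard error 0.44), against 1.90% of all genes called higher. That count was 10 without Huh7 WT replicate 1, where 444 of 14545 genes were called higher, 2 without HepG2 SR replicate 1, where 554 of 15093 were, and 0 without HepG2 WT replicate 1, HepG2 SR replicate 2 or Huh7 SR replicate 1. Of 26 G2 and M phase genes, all above 0 with a median of 1.10, 7 were called higher, against 1.90% of all genes, and 0 lower, among them KIF11 (1.40), CDC20 (1.27), CCNA2 (1.25), FOXM1 (1.24), CENPF (1.15) and CDC25C (1.12). All 4 SR libraries were above all 4 WT libraries in 3 of the 26, CCNA2, CDC25C and CENPF, against 1.52% of all genes. The count of 7 was 0 without HepG2 WT replicate 1, 1 without HepG2 SR replicate 2 or without Huh7 SR replicate 1, 2 without Huh7 WT replicate 2, 11 without HepG2 WT replicate 2 and 22 without Huh7 WT replicate 1, where between 106 and 444 of all genes were called higher, as given above for each library. After rescaling to a common sum it was 4. In the fits without cell line it was 13 in profile 1 alone, where 383 of 13693 genes were called higher. It was 11 with profile as a term, where 3.76% were. Profile 1 includes HepG2 WT replicate 1 and Huh7 WT replicate 2, the libraries with the lowest sums of these genes, but not Huh7 WT replicate 1. With a library left out, the median lay between 0.30 and 1.62 for the centromere and midzone genes. For the G2 and M phase genes the median lay between 0.58 and 1.57.

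Calls among S phase genes also depended on single libraries, and their median log2 fold change lay between 1.02 and 1.48 with a library left out. Of 15, 8 were called higher, against 1.90% of all genes, and 0 lower, with a median log2 fold change of 1.26, and the 6 largest of those called were MCM3 (1.85), MCM7 (1.57), MCM5 (1.55), CDT1 (1.40), MCM2 (1.28) and RRM2 (1.27), genes of origin licensing and nucleotide supply. In 4 of the 15, MCM3, MCM5, CDT1 and RRM2, all SR libraries were above all WT libraries, against 1.52% of all genes. The count was between 5, without HepG2 WT replicate 1 or HepG2 SR replicate 2, and 11, without Huh7 SR replicate 2 (106, 131 and 301 of all genes), and in the fits without cell line it was 6 in profile 1 alone and 10 with profile as a term. AURKA rose by 0.46 more than MCM3, a difference that was not called. The listed genes called over both cell lines in the fit with 4 groups had a limma adjusted p of 0.998.

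**Figure D5:**
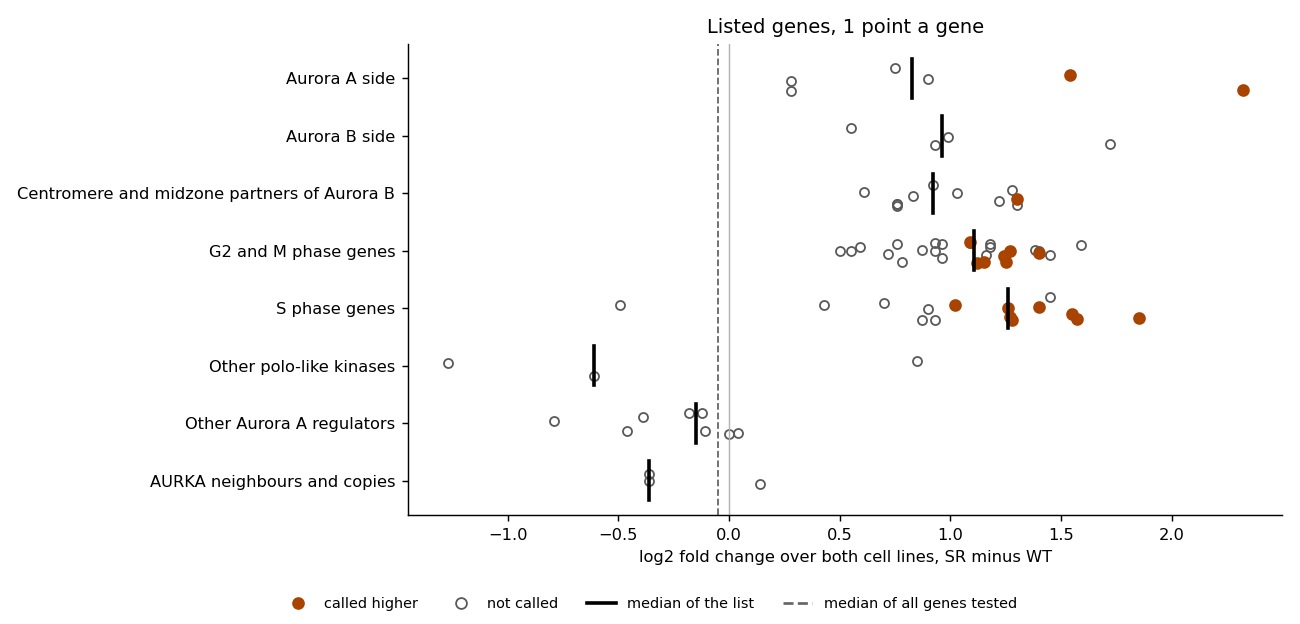
Log2 fold change over both cell lines (SR minus WT) of the listed genes, 1 point a gene, filled where called higher, with a bar at the median of each list and a dashed line at the median of all genes tested (-0.05). The lists of members and of cell cycle genes have medians from 0.82 to 1.26, and AURKA at 2.32 is the highest point.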

How the data were processed

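Gene expression was measured by polyadenylated RNA sequencing in 8 libraries, 2 for each combination of line (HepG2, Huh7) and state (WT, SR). Values were deposited by the authors as FPKM for single libraries. The submitters' processing notes name fastp 0.20.0 and GRCh38, and the aligner, quantification tool and annotation are not given in the sources used here. FPKM are not counts, so the study's count test was replaced by limma 3.58.1 in R 4.3.3 on log2(FPKM + 1), with lmFit and eBayes with trend, on genes with 2 or more libraries at an FPKM of 1 or higher. The model had 4 residual degrees of freedom. P-values were adjusted by Benjamini-Hochberg over all genes tested. Positions came from GENCODE release 29 and promoters from RefSeq.

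Members and lists were chosen with earlier results of these data known. Genes named were the 10 members, up to 6 called genes per list by size of log2 fold change or the largest change where none was called, neighbours and copies of AURKA, and the 5 genes with the highest r with AURKA. Alternatives were the pseudocount (0.1), the filter (0.1 or none), TPM (a common sum for each library), quantile normalization, blocking on replicate number, no trend in eBayes, fitting the cell lines apart, the adjusted p, SR against WT without cell line in profile 1 alone or with profile as a term, and leaving out each library. The fit without pooling the spread, the permutation within cell lines, and counts of members, listed genes and cell line differences over these settings, were added after the values were seen. Fits were tested on simulated data. Depth came from 25064 genes with a single transcript, where whole reads (to within 0.02) made up 8.59% to 14.3% of low values and chance gives 4%, so read counts were not recovered and no interval was drawn from them. Python 3.11.15, NumPy 2.4.6, pandas 2.3.3, SciPy 1.17.1 and matplotlib 3.10.9 were used.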

Additional observations from a re-analysis of the deposited data

Results flagged for a closer look

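In 2 members a single library lay far from the other 3 with the same WT or SR label. BORA was lowest in HepG2 WT replicate 1, at 1.31 on the log2(FPKM + 1) scale, with a gap to the next WT library of 0.883 of the whole range. TACC3 was highest in HepG2 SR replicate 2, at 6.29 on that scale, with a gap to the next SR library of 0.902 of the range. HepG2 WT replicate 2 listed 38276 genes above 0, with a gap of 0.830 of the range over all 8 libraries. These gaps are past the 95% critical values of Dixon's test. Both ends of 23 measures were examined (46 tests), and chance alone puts about 1 in 20 such groups past the critical value.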

How the results depend on the processing

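AURKA kept its direction and its call in HepG2, in Huh7 and over both cell lines under all alternatives with an unadjusted p, and with a library left out it lay between 1.99 and 2.85, between 1.66 and 2.77 and between 2.04 and 2.59. The numbers of DEGs moved more. With the limma adjusted p they were 0 in HepG2, in Huh7, over both and for the difference between the cell lines, where 325, 283, 597 and 92 genes had an unadjusted p under 0.05. A filter at an FPKM of 0.1 gave 504 in HepG2 (325 as reported), 254 for the difference between the cell lines (92 as reported) and 25578 genes that AURKA rose above (14720 as reported), and no filter gave 168 and 46249 for the last 2. These filters let more genes be tested than the 15172 beside AURKA in the main fit, so the counts are not shares of the same total. A separate fit of each cell line gave 120 in Huh7 (283 as reported) and 486 in HepG2 (325 as reported). SR against WT with profile as a term and no cell line, which changes 2 choices together, gave 1245 over both cell lines (596 as reported). With a library left out, the numbers lay between 58 and 1744 in HepG2, 153 and 816 in Huh7, 190 and 1278 over both, 23 and 944 for the difference and 13671 and 14587 for AURKA minus gene, and the cause was not tested. A library left alone in its group is assumed to vary like the others.

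The replicate block within each cell line gave 1392 DEGs in HepG2, 669 in Huh7, 1509 over both and 535 for the difference, and called 6 members higher over both cell lines, while a replicate block over both cell lines called 2 members and 516 genes. Within each cell line it called 18 of 26 G2 and M phase genes (7 as reported), 12 of 15 S phase genes (8) and 7 of 11 centromere and midzone genes (1), where 690 of 15173 genes were called higher, and over both cell lines 4, 9 and 1, where 253 were. Within each cell line it also called PLK3 lower (-1.27), 4 of 8 hepatocyte markers higher and 1 of 4 bile duct markers lower. Deviations of same-numbered WT and SR libraries from their group means had an r of 0.80 in Huh7 and 0.12 in HepG2. Whether libraries of a number were made together is not given.

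Members not called turned direction in some settings. PLK1 in HepG2 was -0.19 without HepG2 WT replicate 1 and 1.30 without WT replicate 2. In Huh7, TPX2 was -0.02, INCENP -0.30, CDCA8 -0.21 and CEP192 -0.10 without WT replicate 2, BORA was -0.17, INCENP -0.06 and CEP192 -0.46 without SR replicate 1, and CEP192 was -0.09 with TPM and -0.01 with a pseudocount of 0.1. The highest values in Huh7 were 1.79 for TPX2, 1.13 for INCENP and 2.13 for CDCA8 without WT replicate 1, and 0.41 for BORA and 0.47 for CEP192 without SR replicate 2. AURKA minus AURKB was -0.30 without Huh7 WT replicate 1 and 1.48 without Huh7 WT replicate 2.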
